A study of Mus musculus with 10 samples.

Results

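The 10 genes described here encode tubulins, regulators of microtubules, and growth or surface proteins that are high in young neurons: Tuba1a, Tubb2a, Tubb2b, Tubb3, Tubb4a, Stmn1, Stmn2, Dcx, Gap43 and Cd24a. They were chosen by symbol, and all 10 were found among the 30063 genes of the array that could be represented by a transcript cluster carrying 1 gene symbol. All 10 also passed the filter on low signal, which left 23255 genes to test. Each has 1 such cluster, so no choice between clusters was needed.

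The samples were retinas of C57BL/6JJmsSlc mice, with 5 groups of 2 Affymetrix whole-transcript arrays, 10 arrays in all. In oxygen-induced retinopathy (OIR), the oxygen in the air of 7-day-old pups is raised to 75% for 5 days, after which they return to room air. The hyperoxia stops and prunes the growing vessels, and the retina becomes hypoxic in air and sprouts new vessels. At day 17 there were OIR retinas of eyes injected with ISOX DUAL, OIR retinas of eyes injected with phosphate-buffered saline (PBS), uninjected OIR retinas and untreated retinas, and the last group was untreated retina at day 7. Injection was into the vitreous at the end of the oxygen exposure. ISOX DUAL is known as an inhibitor that binds the bromodomains of the BET proteins and of CBP and EP300, which read acetylated histones. The study's stated interest was in genes raised in OIR that return towards their original level with ISOX DUAL, and day 17 against day 7 gives the developmental course without disease. No dose, sex or vehicle composition is used here, and it is not stated whether both arrays of a group hold RNA of different mice. P-values therefore reflect array-to-array spread, some or all of which may be technical.

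Microtubules are polymers of alpha- and beta-tubulin dimers, and neurons use several tubulin genes with overlapping roles. Newborn neurons express high levels of Tuba1a, Tubb2b and Tubb3 together with doublecortin (Dcx), which stabilises microtubules in migrating cells, the stathmins Stmn1 and Stmn2, which bind tubulin and favour disassembly, and Gap43, a membrane protein of growth cones. Cd24a encodes a small glycoprotein anchored to the surface of immature neurons and of several other cell types. In the mouse retina ganglion cells are born before birth, while rods, bipolar cells and Müller glia are still being added in the first postnatal week. Axons and synapses mature over the following days.

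Array medians ran from 5.55 to 5.68 on the deposited log2 scale, and 8.00% to 9.97% of transcript clusters exceeded 95% of the negative controls on their array. The medians of those negative controls were 5.83 to 6.11, and none of the 10 genes lay below them in both groups of any comparison. Their 95th percentiles were higher, at 8.31 to 8.64. Gap43 lay under that percentile on every array, and Dcx, Stmn1 and Tubb2b did so on every day 17 array. Dcx also lay under it on the first day 7 array (8.33 against 8.44 log2). Cd24a did so at day 17 except on the second ISOX DUAL array. Markers of the labelled tissue were well above the negative control medians. The mean of 6 rod genes on the array was 11.02 to 11.28 on the day 17 arrays and 9.96 and 9.29 on the day 7 arrays. Precision is limited by having 2 arrays a group, and the median 95% interval of a difference between groups, over all genes tested, extended 0.311 log2 units to either side. All of the 10 genes but Dcx had wider intervals. Their standard errors ran from 0.12 log2 (Dcx) to 0.57 log2 (Cd24a), against a median of 0.13 log2 over all genes. Levels are log2 signals of different probes and are compared between arrays for 1 gene, never between genes.

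**Figure D1:**
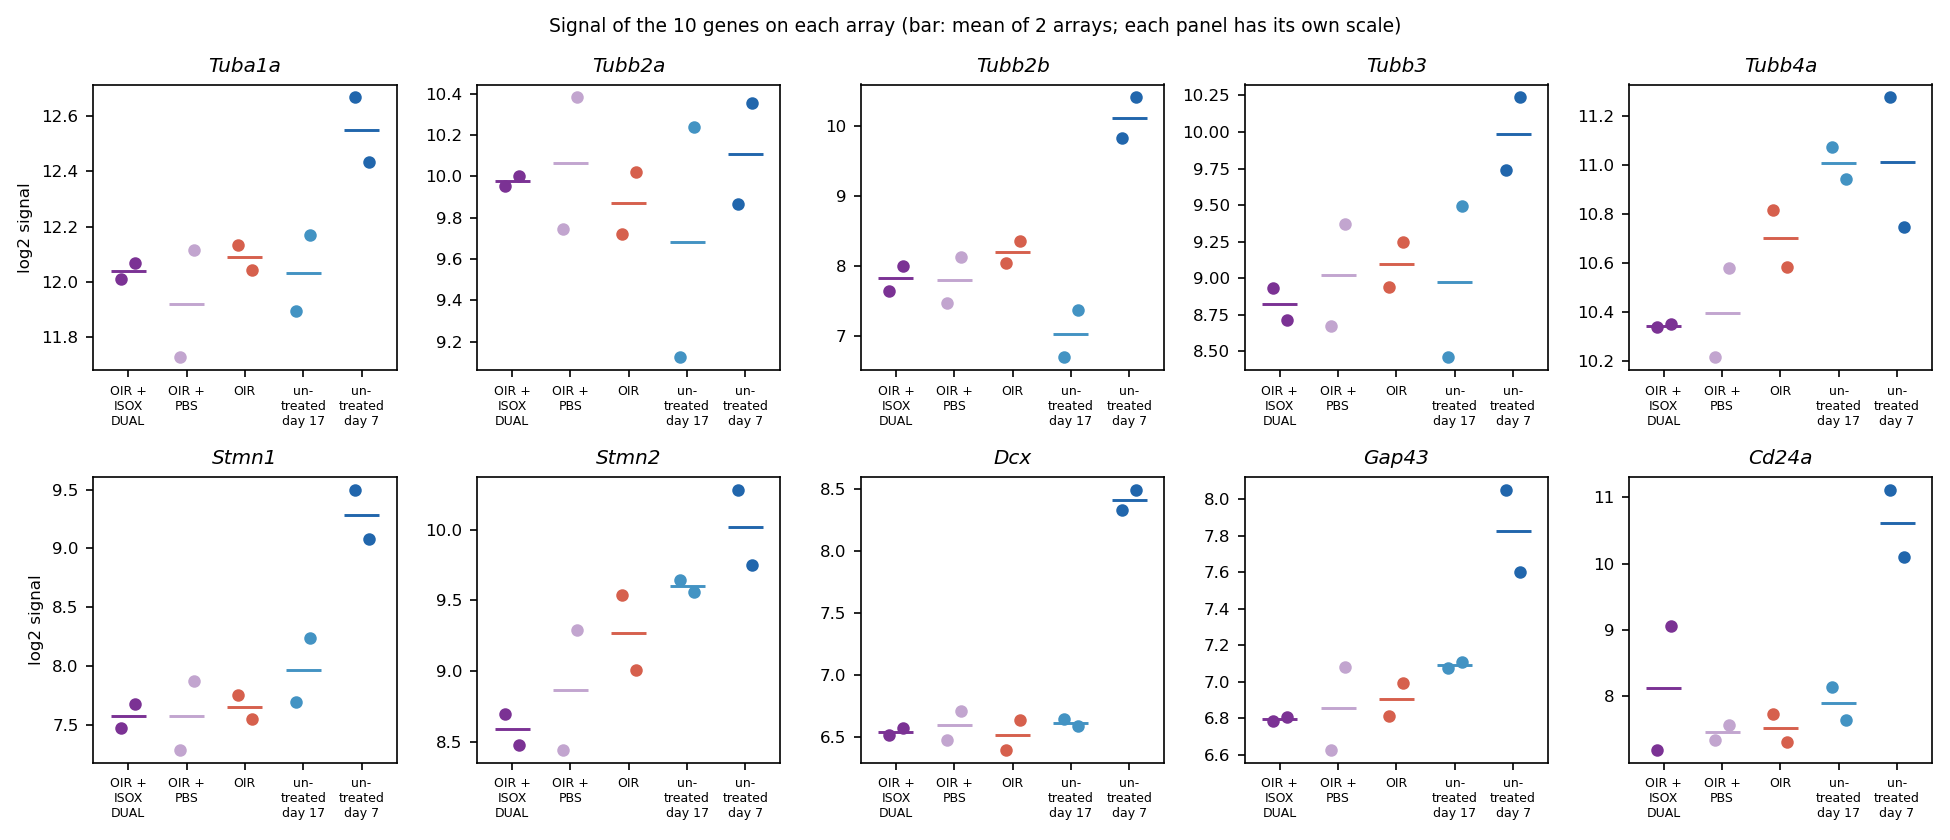
Log2 signal of each of the 10 genes (vertical axes, a separate scale per panel) on the 2 arrays of each of the 5 groups (horizontal axes). Points are arrays and bars are group means. In 8 panels both untreated day 7 arrays lie above all 8 day 17 arrays, and the panels of Tubb2a and Tubb4a are the exceptions.

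In untreated retina, 5 of the 10 genes fell between the days: Tubb2b, Cd24a, Dcx, Stmn1 and Gap43 were lower at day 17 than at day 7 at an adjusted p under 0.05 (limma, Benjamini-Hochberg over all genes tested). Over all genes tested, 5.29% were lower by the same criterion, 5.26% were higher, and 10.6% changed in either direction. All 10 differences had a negative sign, with a median of -0.87 log2 against 0.01 log2 over all genes. The sign was not fixed for Tubb2a (0.13 log2 without the first day 17 array) or Tubb4a (0.042 log2 after quantile normalization). None of the 10 rose. The 2 groups did not overlap for 8 of the 10 genes, all lower at day 17, as for 19.7% of all genes. In 8 of the 10 genes all 8 day 17 arrays, OIR included, lay below both day 7 arrays, which held for 12.4% of all genes.

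Among the tubulins the largest difference was that of Tubb2b, a beta-tubulin of the developing brain whose mutations disturb cortical folding in humans. It read 6.70 and 7.37 log2 on the untreated day 17 arrays, against 9.82 and 10.40 log2 on the day 7 arrays. The groups lay far apart relative to the gap within each. The level was 8.42-fold lower at day 17, a difference of -3.07 ± 0.31 log2 (standard error, SE, n = 2 arrays each), with an adjusted p of 0.00126 in limma. This call held without any 1 of the 10 arrays and under all 10 other settings tried. Tubb2b has close sequence relatives, and whether its probes also bind their transcripts was not tested.

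Tubb3, the neuron-specific beta-tubulin used as a marker of neurons, read 8.46 and 9.49 log2 at day 17, against 9.74 and 10.24 log2 at day 7. The groups did not overlap, but the day 17 arrays differed from each other by about as much as the group means did. Its difference of -1.01 ± 0.36 log2 (SE, n = 2 each) did not pass the threshold (limma adjusted p = 0.135). Without the second untreated day 17 array it was -1.53 log2 at an adjusted p of 0.0353, and without the first it was -0.50 log2.

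Tuba1a, the main alpha-tubulin of growing neurons, read 11.89 and 12.17 log2 at day 17, against 12.67 and 12.43 log2 at day 7. The groups did not overlap, and the difference of -0.52 ± 0.16 log2 (SE, n = 2 each) missed the threshold (limma adjusted p = 0.0828). Tubb2a, a beta-tubulin abundant in brain, read 9.12 and 10.24 log2 at day 17, against 9.86 and 10.35 log2 at day 7. Its groups overlapped, and its 95% interval ran from -1.27 to 0.42 log2. Tubb4a, a beta-tubulin of mature neural tissue, read 11.07 and 10.95 log2 at day 17, against 11.28 and 10.75 log2 at day 7. Both day 17 arrays lay between the day 7 arrays, and the 95% interval of the difference ran from -0.45 to 0.45 log2.

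Of the regulators of microtubules Dcx and Stmn1 fell, and Stmn2 did not pass. Dcx read 6.64 and 6.59 log2 at day 17, against 8.33 and 8.49 log2 at day 7. Its arrays differed little within each day. It was 3.47-fold lower at day 17 (-1.80 ± 0.12 log2, SE, n = 2 each, limma adjusted p = 0.00029), and the call held without any 1 array and under all 10 other settings. Stmn1, the stathmin of dividing and young cells, read 7.69 and 8.24 log2 at day 17, against 9.50 and 9.08 log2 at day 7. It was 2.50-fold lower (-1.32 ± 0.25 log2, SE, n = 2 each, limma adjusted p = 0.0151). Without the first day 17 array the difference was -1.05 log2 at an adjusted p of 0.0782, and without the first day 7 array -1.11 log2 at 0.0724. Stmn2, the stathmin of growing axons, read 9.64 and 9.56 log2 at day 17, against 10.28 and 9.75 log2 at day 7. Its groups did not overlap, and its difference of -0.42 ± 0.30 log2 (SE, n = 2 each) did not pass (limma adjusted p = 0.506).

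The genes of the growth protein Gap43 and the surface protein Cd24a both fell. Cd24a read 8.14 and 7.65 log2 at day 17, against 11.11 and 10.10 log2 at day 7. Both day 17 arrays were well below the lower day 7 array. It was 6.54-fold lower at day 17 (-2.71 ± 0.57 log2, SE, n = 2 each, limma adjusted p = 0.0223). Leaving out the first day 17 array gave -2.96 log2 at an adjusted p of 0.066, leaving out the second gave -2.46 log2 at 0.0876, and leaving out the first day 7 array gave -2.20 log2 at 0.103. Gap43 read 7.08 and 7.11 log2 at day 17, against 8.05 and 7.60 log2 at day 7. The day 17 arrays were nearly equal and the day 7 arrays both higher. It was 1.66-fold lower (-0.74 ± 0.19 log2, SE, n = 2 each, limma adjusted p = 0.0442), close to the threshold. The call was lost without either ISOX DUAL array (adjusted p = 0.0862 each), without either uninjected OIR array (0.0627 each), without the first (0.154) or second (0.105) untreated day 17 array, and without the first day 7 array (0.162), where the difference was -0.51 log2.

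**Figure D2:**
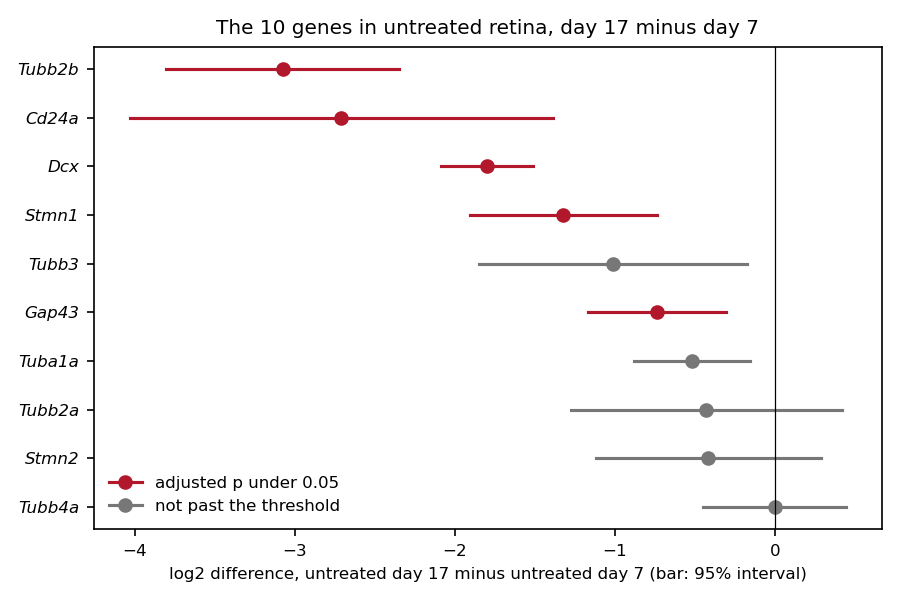
Difference in log2 signal, untreated day 17 minus untreated day 7 (horizontal axis), for each of the 10 genes (vertical axis). Points are fitted differences and bars their 95% intervals, with red for the 5 genes past the threshold. Tubb2b and Cd24a fell most, and Tubb4a lies at 0.

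Promoters of these genes are shown because the fall between the days was shared by some members and not by others. Of the 10 genes, 5 had an entry among the RefSeq promoters of GRCm38.p6 (Tuba1a, Tubb2a, Tubb3, Tubb4a and Dcx). Dcx was the only 1 of these past the threshold between the days, so genes that fell cannot be set against the others here. The 100 bases before the start site are printed 5′ to 3′ on the gene's own strand for Dcx, which fell, for Tubb4a, which did not differ detectably, and for Tubb2a, whose groups overlapped. Capitals mark the motifs searched, on either strand.
Dcx, start site 1, chrX:143933220-143933319, minus strand: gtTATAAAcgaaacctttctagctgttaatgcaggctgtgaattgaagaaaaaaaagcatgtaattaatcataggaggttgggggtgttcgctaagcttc
Tubb4a, chr17:57087601-57087700, minus strand: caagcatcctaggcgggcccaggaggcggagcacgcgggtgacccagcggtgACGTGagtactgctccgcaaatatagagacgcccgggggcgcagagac
Tubb2a, chr13:34078009-34078108, minus strand: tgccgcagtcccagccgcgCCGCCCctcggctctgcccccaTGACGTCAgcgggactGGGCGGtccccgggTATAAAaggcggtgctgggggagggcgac

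The motifs were TATAAA (the TATA box), CCAAT (the CAAT box), GGGCGG (the GC box), TGACGTCA (the full cAMP response element) and ACGTG (the core of hypoxia response elements). The last pair can overlap. They were searched on both strands over 250 bases before the start in 27025 promoters, of which 13.0%, 34.5%, 32.9%, 1.62% and 16.6% held them in that order. Dcx held 1 TATAAA, at 98 to 93 bases before its first start site in the table and 193 to 188 before the second, and CCAAT before the first. Tubb2a held TATAAA at 29 to 24 bases before the start, TGACGTCA at 59 to 52 bases and GGGCGG at 2 places. Tubb4a held ACGTG at 48 to 44 bases and none of the other 4. Tuba1a held CCAAT and GGGCGG, and Tubb3 held CCAAT and GGGCGG at 2 places. These matches describe the letters only.

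Other genes of the same kinds were read from lists. Of 11 other tubulins tested, 2 rose and 1 fell between the days, with a median of 0.02 log2. Tuba4a, an alpha-tubulin of mature neurons, was 2.71-fold higher at day 17 (1.44 ± 0.15 log2, SE, n = 2 each, limma adjusted p = 0.00144), and Tube1, the centriolar epsilon-tubulin, was 0.54 ± 0.10 log2 higher (adjusted p = 0.013). Tubb5, a beta-tubulin of dividing cells and progenitors, was 1.78-fold lower (-0.83 ± 0.16 log2, adjusted p = 0.0164). Tuba8 differed by 0.33 log2 without passing (adjusted p = 0.112). The tubulin genes therefore held both directions.

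Microtubule-binding genes also went both ways, with 3 higher and 3 lower of 19 tested and a median of -0.15 log2. Tppp, which bundles microtubules, was 1.23 ± 0.16 log2 higher at day 17 (SE, n = 2 each, limma adjusted p = 0.00356), and the plus-end protein gene Mapre3 was 0.92 ± 0.13 log2 higher (adjusted p = 0.00512). Its relative Mapre1 was 0.84 log2 lower at day 17, a difference of -0.84 ± 0.15 log2 (adjusted p = 0.0103). The stathmin gene Stmn4 differed by -0.68 ± 0.12 log2 (adjusted p = 0.0119). Among 17 genes of tubulin folding and modification 2 rose and 5 fell, with a median of -0.16 log2. Ttll7, a polyglutamylase of neuronal tubulin, was 1.27 ± 0.15 log2 higher at day 17 (SE, n = 2 each, limma adjusted p = 0.00251). Genes of enzymes that remove or restore the terminal tyrosine of alpha-tubulin, Vash2 and Ttl, differed by -0.98 ± 0.13 and -0.63 ± 0.12 log2 (adjusted p = 0.00323 and 0.0147), and the acetyltransferase gene Atat1 by -1.00 ± 0.20 log2 (adjusted p = 0.0173).

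The list nearest to the 10 genes held other genes of immature neurons and axon growth. Of 26 tested, 9 fell and none rose between the days, 22 had a negative sign, and the median was -0.45 log2. Sox4 and Sox11, transcription factors of newborn neurons, were 5.81-fold lower (-2.54 ± 0.13 log2, SE, n = 2 each, limma adjusted p = 8.36e-05) and 4.00-fold lower (-2.00 ± 0.10 log2, adjusted p = 8.28e-05) at day 17. Nnat, a small membrane protein of the developing brain, was 5.99-fold lower (-2.58 ± 0.21 log2, adjusted p = 0.000529). Dpysl5, a collapsin response mediator of growing axons, was 2.09-fold lower (-1.06 ± 0.16 log2, adjusted p = 0.0055).

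**Figure D3:**
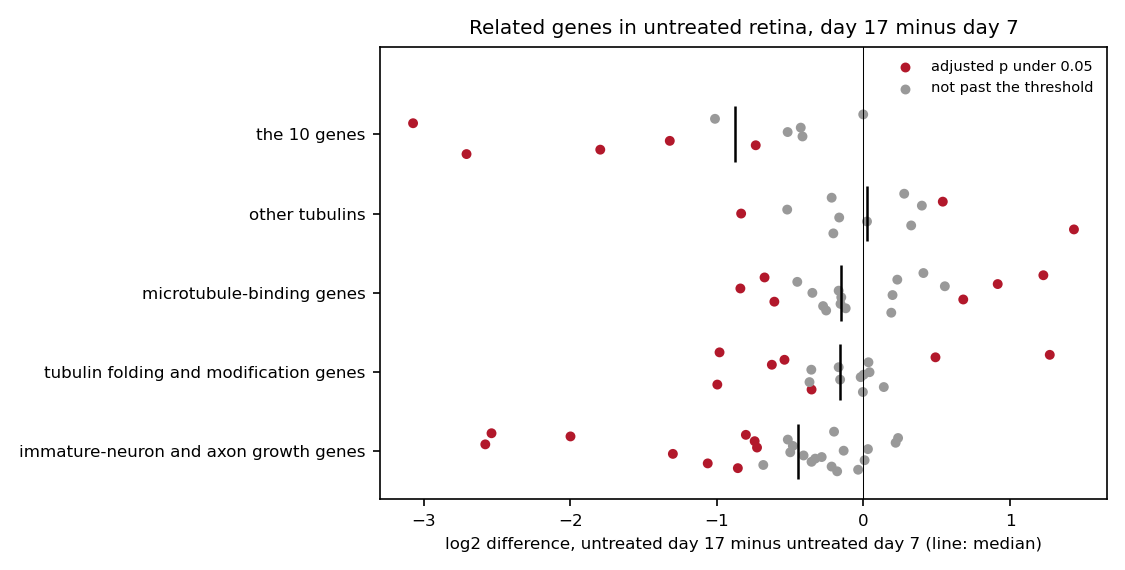
Difference in log2 signal, untreated day 17 minus untreated day 7 (horizontal axis), for the 10 genes and 4 lists of related genes (rows). Each point is a gene, red where it passed the threshold, and the vertical line is the median of the row. The medians are -0.87 log2 for the 10 genes, 0.02 log2 for other tubulins and -0.45 log2 for immature-neuron and axon growth genes.

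Markers of cell types moved between the same groups. Of 6 rod genes 5 rose between the days, Gnat1, the rod transducin, by 3.99 ± 0.35 log2 (SE, n = 2 each, limma adjusted p = 0.000664), while Nrl, the rod transcription factor, differed by 0.28 log2 without passing (adjusted p = 0.334). Of 5 genes of cycling progenitors 3 fell, and all 3 read under the negative control median on both day 17 arrays, so at most bounds against that median are given. Mki67 was at least 9.84-fold lower at day 17 (adjusted p = 0.00031) and Top2a at least 3.35-fold lower (adjusted p = 0.00101). Cdk1 was also lower (adjusted p = 0.0134). Its first day 7 array read 5.72 log2, under the negative control median of 5.99 on that array, so no bound is given. The mean of the cycling list was 5.63 and 5.55 log2 at day 17, against 7.03 and 7.67 log2 at day 7. Of 8 ganglion cell genes 1 rose, Nefh (1.57 log2, adjusted p = 0.00204), which is named after its value was seen, and the list mean was 8.63 and 8.58 log2 at day 17, against 8.20 and 7.66 log2 at day 7. Of 7 amacrine genes 2 rose (Chat by 0.66 log2 and Gad1 by 0.81 log2, adjusted p = 0.00774 and 0.0278) and Tfap2a fell by 0.61 log2 (0.00418). In whole retina fewer cells of a type and less RNA per cell cannot be told apart, and the part of cell composition in the fall of the 5 genes was not tested.

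Against untreated retina of the same age, uninjected OIR changed none of the 10 genes past the threshold. Over all genes tested, 0.495% passed, 0.456% higher and 0.0387% lower in OIR. At an unadjusted p under 0.05, limma listed 1 of the 10 genes (Tubb2b), against 6.1% of all genes. The differences were positive for 4 genes and negative for 6, with a median of -0.14 log2 against -0.04 log2 over all genes. Groups did not overlap for 1 gene that was higher (9.44% of all genes) and 3 that were lower in OIR (19% of all genes).

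In uninjected OIR Tubb2b had the largest difference of the 10 genes from untreated retina, while with ISOX DUAL that of Stmn2 was larger. It read 7.65 and 8.00 log2 in OIR with ISOX DUAL, 7.47 and 8.13 log2 in OIR with PBS and 8.05 and 8.35 log2 in uninjected OIR, against 6.70 and 7.37 log2 in untreated day 17 retina. All 6 OIR arrays were higher than both untreated arrays of that age, which held for 4.85% of all genes, and all 6 stayed below the day 7 arrays. The closest pair was the first PBS array and the second untreated array, at 7.47 and 7.37 log2. In uninjected OIR the signal was 2.24-fold that of untreated retina, a difference of 1.16 ± 0.31 log2 (SE, n = 2 each) with a 95% interval from 0.44 to 1.89 log2. It did not pass over all genes (limma adjusted p = 0.341), and the difference ranged from 0.83 to 1.50 log2 without 1 array. With the replicate number as a block, which no label ties to a shared animal or batch, it passed (adjusted p = 0.0169). The PBS group differed from the same untreated arrays by 0.77 ± 0.31 log2 (adjusted p = 0.541) and the ISOX DUAL group by 0.79 ± 0.31 log2 (adjusted p = 0.553). These comparisons share the untreated arrays.

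Stmn2 and Tubb4a went the other way. Stmn2 read 8.70 and 8.48 log2 in OIR with ISOX DUAL, 8.45 and 9.29 log2 in OIR with PBS and 9.54 and 9.00 log2 in uninjected OIR, against 9.64 and 9.56 log2 in untreated day 17 retina. Tubb4a read 10.34 and 10.35 log2 in OIR with ISOX DUAL, 10.22 and 10.58 log2 in OIR with PBS and 10.82 and 10.59 log2 in uninjected OIR, against 11.07 and 10.95 log2 in untreated day 17 retina. For both genes all 6 OIR arrays were below both untreated arrays of that age, as for 9.63% of all genes. For Tubb4a all 4 injected arrays were also below all 4 uninjected day 17 arrays, as for 4.01% of all genes, although the highest injected and lowest uninjected arrays were close, at 10.58 and 10.59 log2.

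Neither gene passed the threshold in any OIR group. Stmn2 differed from untreated day 17 retina by -1.01 ± 0.30 log2 in OIR with ISOX DUAL (limma adjusted p = 0.413), by -0.73 ± 0.30 log2 with PBS (0.541) and by -0.33 ± 0.30 log2 without injection (0.999). Tubb4a differed by -0.66 ± 0.19 log2 with ISOX DUAL (adjusted p = 0.394), by -0.61 ± 0.19 log2 with PBS (0.541) and by -0.31 ± 0.19 log2 without injection (0.999). Each value is ± SE with n = 2 in each group.

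Ganglion cell markers lay lower on the same arrays. The mean of 8 such genes was 7.64 and 7.18 log2 in OIR with ISOX DUAL, 7.40 and 8.16 log2 in OIR with PBS and 8.48 and 8.06 log2 in uninjected OIR, against 8.63 and 8.58 log2 in untreated day 17 retina. The second PBS array was high within its group for Stmn2 and for this list alike, but also for all 10 genes and for 61.6% of all genes tested. Between the untreated groups the 2 went opposite ways. Stmn2 was higher on both day 7 arrays than at day 17, and the list mean was lower on both. The lists' medians against untreated retina were -1.08 log2 with ISOX DUAL, -0.75 log2 with PBS and -0.35 log2 without injection, and 0 of the 8 genes passed. The part of these markers in the Stmn2 values was not tested.

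**Figure D4:**
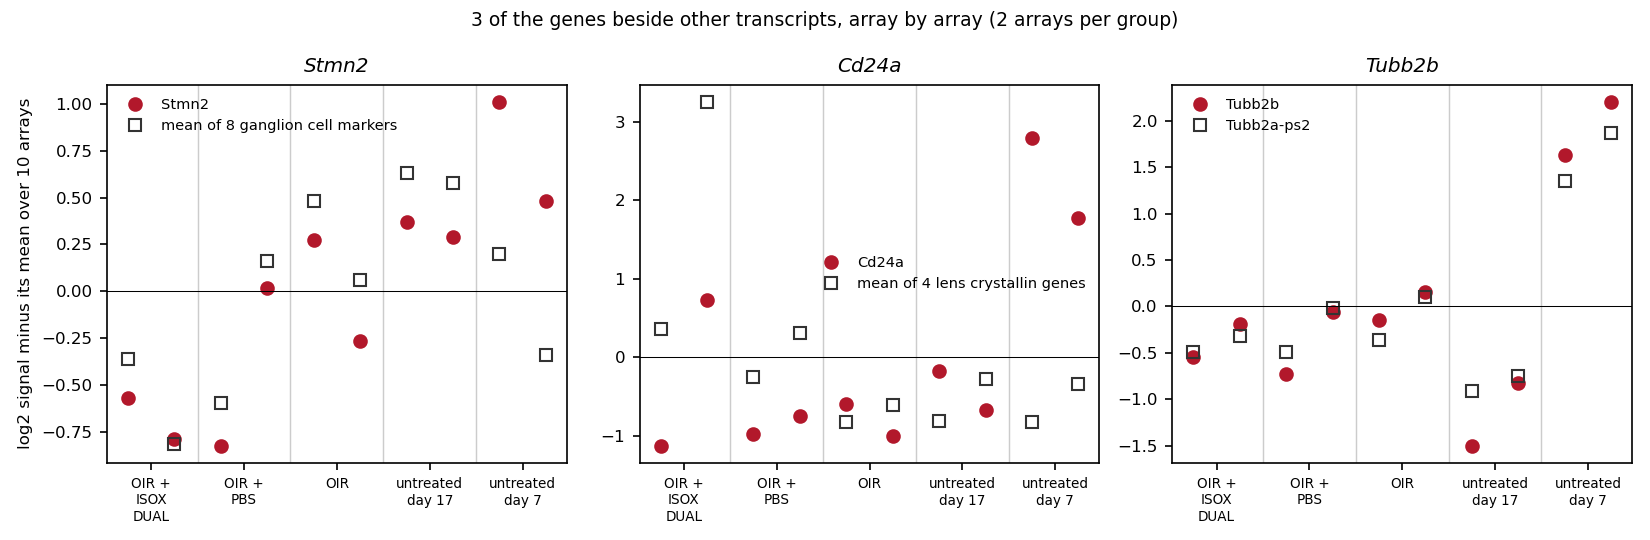
Log2 signal minus its own mean over the 10 arrays (vertical axes) for Stmn2, Cd24a and Tubb2b (filled circles) beside the mean of 8 ganglion cell markers, the mean of 4 lens crystallin genes and the pseudogene Tubb2a-ps2 (open squares). Each group on the horizontal axes holds 2 arrays. Stmn2 and the ganglion cell mean are both low on both ISOX DUAL arrays and the first PBS array, and Cd24a and the crystallins are both high on the second ISOX DUAL array. On the first ISOX DUAL array Cd24a is low and the crystallins are not, and on both day 7 arrays Cd24a is high and the crystallins are low.

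For the other members no difference in OIR passed the threshold, and the intervals varied in width. In uninjected OIR against untreated day 17 retina the 95% interval ran from -1.69 to 0.95 log2 for Cd24a, from -0.66 to 1.04 log2 for Tubb2a and from -0.72 to 0.96 log2 for Tubb3. Cd24a read 7.20 and 9.06 log2 in OIR with ISOX DUAL, 7.34 and 7.57 log2 in OIR with PBS and 7.73 and 7.32 log2 in uninjected OIR, against 8.14 and 7.65 log2 in untreated day 17 retina. Apart from the second ISOX DUAL array, all day 17 arrays lay at or below 8.14 log2. Dcx stayed between 6.40 and 6.71 log2 on all 8 day 17 arrays, and its difference in uninjected OIR, -0.10 ± 0.12 log2 (SE, n = 2 each), had a 95% interval from -0.38 to 0.19 log2. That interval does not reach the size of its fall between the days. All its day 17 levels were under the 95th percentile of the negative controls. Tuba1a read 11.73 to 12.17 log2 over the day 17 arrays and Gap43 6.63 to 7.11 log2. Stmn1 read 7.29 to 8.24 log2, Tubb2a 9.12 to 10.38 log2 and Tubb3 8.46 to 9.49 log2.

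**Figure D5:**
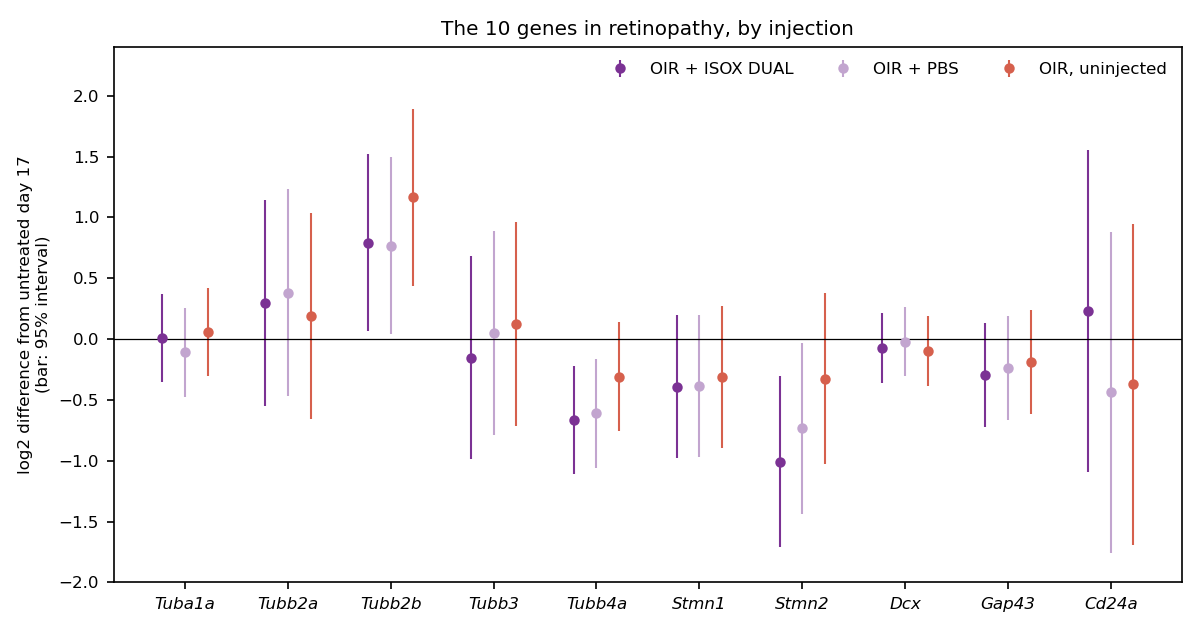
Difference in log2 signal from untreated day 17 retina (vertical axis) for the 10 genes (horizontal axis) in OIR with ISOX DUAL, OIR with PBS and uninjected OIR. Points are fitted differences with 95% intervals, and the 3 comparisons share the untreated arrays. Tubb2b lies above 0 and Tubb4a and Stmn2 below 0 in all 3, and none passed the threshold.

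In OIR with PBS no gene of the whole table passed the threshold against untreated retina (0% of 23255 genes), while 9.14% had an unadjusted p under 0.05 in limma, among them 3 of the 10 genes (Tubb2b, Tubb4a and Stmn2). In OIR with ISOX DUAL 4 genes passed (0.0172%), none of them among the 10. Of all genes 8.46% had an unadjusted p under 0.05 there, among them the same 3 members by name.

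The direct comparison of ISOX DUAL with PBS injection found no difference past the threshold in any of the 10 genes or in any other gene (0% of 23255 genes by limma, 1.02% at an unadjusted p under 0.05, and none of the 10 genes at that level). The arrays of both injected groups overlapped for all 10 genes, while 28% of all genes had no overlap. Tubb2b differed by 0.02 ± 0.31 log2 (SE, n = 2 each), with a 95% interval from -0.70 to 0.75 log2. For Dcx the interval ran from -0.34 to 0.23 log2, for Tubb4a from -0.50 to 0.39 log2 and for Stmn2 from -0.98 to 0.43 log2. Each of these 4 intervals, which rest on the spread between arrays, excludes a 2-fold change in either direction, which is 1 log2 unit. Those of Tubb3 (-1.04 to 0.64 log2) and Cd24a (-0.65 to 1.99 log2) do not.

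Cd24a had the largest fitted difference between the injected groups, 0.67 ± 0.57 log2 (SE, n = 2 each), with a 95% interval from -0.65 to 1.99 log2. It rests on the second ISOX DUAL array. Without that array the differences of ISOX DUAL were -0.26 log2 from PBS, -0.33 log2 from uninjected OIR and -0.70 log2 from untreated retina. The mean of 4 lens crystallin genes was 6.63 and 9.52 log2 in OIR with ISOX DUAL, 6.01 and 6.58 log2 in OIR with PBS and 5.44 and 5.66 log2 in uninjected OIR, against 5.46 and 5.99 log2 in untreated day 17 retina. The second ISOX DUAL array was thus the highest for the crystallins and, among day 17 arrays, for Cd24a. The other arrays did not share this match. On the first ISOX DUAL array Cd24a was the lowest of the 10 arrays (7.20 log2). Both day 7 arrays were the highest for Cd24a (11.11 and 10.10 log2), with crystallin means of 5.44 and 5.93 log2. Cryaa, chosen after its values were seen, read 8.05 and 11.75 log2 in OIR with ISOX DUAL, against 7.30 and 8.34 log2 in OIR with PBS. The part of lens RNA in the Cd24a value was not tested.

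Against uninjected OIR, 1 gene of the table passed with ISOX DUAL (0.0043%) and 0 passed with PBS (0%), and none of the 10 genes did. By limma 4.29% of all genes, and none of the 10, had an unadjusted p under 0.05 in each of these comparisons. With ISOX DUAL, groups did not overlap for 5 genes that were lower (15.4% of all genes) and 0 that were higher (25.7%). With PBS this held for 1 gene that was lower (15.3% of all genes) and 0 that were higher (20.9%). Stmn2 differed by -0.68 ± 0.30 log2 with ISOX DUAL (SE, n = 2 each, 95% interval from -1.39 to 0.02 log2) and by -0.41 ± 0.30 log2 with PBS. Tubb2b differed by -0.37 ± 0.31 log2 with ISOX DUAL and by -0.40 ± 0.31 log2 with PBS. Tubb4a differed by -0.36 ± 0.19 log2 with ISOX DUAL and by -0.30 ± 0.19 log2 with PBS. Both comparisons share the uninjected OIR arrays.

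In OIR the related lists held no gene past the threshold. Among the 11 other tubulins, 19 microtubule-binding genes, 17 folding and modification genes and 26 immature-neuron and axon growth genes, 0 passed in uninjected OIR against untreated retina, and the list medians were -0.01, 0.04, -0.06 and -0.07 log2. Of smallest p were Tubb6, a beta-tubulin found outside neurons, at 0.60 ± 0.22 log2 (SE, n = 2 each, limma adjusted p = 0.639), and Tubb5 at 0.37 ± 0.16 log2 (0.842). Dclk1, a kinase related to doublecortin, differed by 0.27 ± 0.10 log2 (adjusted p = 0.672) and Mapt, which encodes tau, by 0.27 ± 0.13 log2 (0.905). Agbl5, a deglutamylase, differed by 0.36 ± 0.08 log2 (adjusted p = 0.228) and Ttll7 by -0.42 ± 0.15 log2 (0.659). Elavl4, a neuronal RNA-binding protein, differed by -0.43 ± 0.15 log2 (adjusted p = 0.601) and the transcription factor Nhlh2 by -0.36 ± 0.13 log2 (0.626). Of the 5 genes of cycling progenitors none passed in uninjected OIR, and 3 differences were positive and 2 negative. Mki67 read 6.77 and 6.54 log2 in uninjected OIR, against 5.14 and 4.49 log2 in untreated day 17 retina, where both arrays lay under their negative control median. It was at least 1.76-fold higher in OIR without passing (limma adjusted p = 0.057). Hes5, a Notch target of progenitors, differed by -0.31 log2.

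The groups were ordered by mean level for each member. For Cd24a, Dcx, Stmn1, Tuba1a and Tubb3 the only neighbours in the order whose arrays did not overlap were untreated day 7 and the group next to it. For Tubb2a all neighbours overlapped. Tubb2b ran from untreated day 17 (7.04 log2) through PBS (7.80), ISOX DUAL (7.83) and uninjected OIR (8.20) to untreated day 7 (10.11). Among neighbours in this order only PBS and ISOX DUAL overlapped. PBS and uninjected OIR, which are not neighbours, also overlapped (8.13 log2 on the second PBS array and 8.05 log2 on the first OIR array). Tubb4a ran from ISOX DUAL (10.35) and PBS (10.40), which overlapped, through uninjected OIR (10.70) to untreated day 17 and day 7 (11.01 each), which overlapped. For Stmn2 the 3 OIR groups overlapped with their neighbours, and untreated day 17 (9.60) and day 7 (10.02) stood apart above them. Gap43 had the same order, with untreated day 17 (7.09) and day 7 (7.83) apart from uninjected OIR (6.90).

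For each member the gene of most similar profile was taken as the one with the smallest root-mean-square difference of mean-centred log2 levels over the 10 arrays. Predicted and unnamed genes and the other members were left out of this search. Tubb2b was nearest to Tubb2a-ps2 (0.257 log2), which RefSeq lists as a transcribed pseudogene. Tubb2a-ps2 read 7.29 and 7.47 log2 in OIR with ISOX DUAL, 7.29 and 7.77 log2 with PBS, 7.42 and 7.88 log2 in uninjected OIR, 6.87 and 7.04 log2 in untreated day 17 retina and 9.13 and 9.64 log2 in untreated day 7 retina. It was lowest in the same group as Tubb2b and highest in the same group. Its choice by likeness on these same arrays favours this and the differences that follow, so they are no separate evidence. It fell by 2.44 log2 between the days (limma adjusted p = 0.000966), and in uninjected OIR it differed from untreated day 17 retina by 0.70 ± 0.23 log2 (SE, n = 2 each, adjusted p = 0.571). Whether probes of one copy also bind transcripts of the other was not tested, so the values of Tubb2a, Tubb2b and the pseudogene are uncertain to that extent. RefSeq places Tubb2a and Tubb2b on chromosome 13 with 1 gene between them, the long noncoding RNA 4930447K03Rik. The same caution holds for Tuba1a and its close relatives among the alpha-tubulins.

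The nearest profiles of the other members were Hsd17b10 for Tuba1a (0.0752 log2), Gas1 for Tubb2a (0.141 log2), Cplx2 for Tubb3 (0.147 log2) and Rtn1 for Tubb4a (0.0835 log2). They were Nt5dc2 for Stmn1 (0.156 log2), Nell2 for Stmn2 (0.146 log2), Fgf15 for Dcx (0.124 log2), Macroh2a2 for Gap43 (0.101 log2) and Gje1 for Cd24a (0.480 log2). The distance of Cd24a was the largest of the 10, and a gene that varies much, as Cd24a did, tends to have a large distance. Fgf15 and Gje1 read under the negative control median on both untreated day 17 arrays. Nearest to the median profile of all 10 genes were Ebf3 (0.111 log2), Crabp1 (0.116 log2), Jpt1 (0.118 log2), Dpysl5 (0.124 log2) and Tmeff1 (0.131 log2). Each of these 5 fell between the days, which their choice by likeness to a falling profile favours. A small distance also arises for genes that vary little, so it describes these 10 arrays only.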

How the data were processed

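Per the labels' protocols, Trizol was used to extract total retinal RNA, and the WT Terminal Labeling Kit (Affymetrix) to fragment and biotinylate the samples. The deposited table gives each array a log2 signal for every transcript cluster. That the scale is log2 was taken from its range (1.03 to 13.67), since how the authors corrected, normalized and summarised the probes is not stated in the labels, and the values were used as deposited.

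Of 72688 rows, 6732 control rows were set aside and 65956 clusters remained: 30604 with 1 gene symbol, 2146 with several and 33206 with none, in GEO's platform annotation. Symbols were updated by Entrez identifier for 22818 clusters and by symbol or synonym for 7784 (RefSeq, GRCm38.p6), and 2 were kept. Where a gene had several such clusters the one with the highest mean stood for it, and genes were tested where at least 2 arrays exceeded that array's 30th percentile.

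One model of 5 group means was fitted to the 10 arrays by limma (version 3.58.1, R 4.3.3), using lmFit and then eBayes without a trend, which gave 5 residual and 2.76 prior degrees of freedom. Benjamini-Hochberg adjustment covered all 23255 genes, and calls were made at 0.05. The steps were tested on simulated data. Where both arrays of the lower group read under their negative control median, a fold is a bound against that median.

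The members, gene lists and most settings were chosen with earlier results of these data known. The text names the 10 members, up to 4 genes per list of smallest p between the days and 2 in OIR, up to 3 markers per cell type, and the nearest profiles. Other settings were quantile normalization, median centring, other filters, a variance trend, array weights, the comparison's 4 arrays alone, the mean of clusters, the replicate number as a block, and leaving out each array. No enrichment or set test was run. Coordinates are given only for RefSeq promoters.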

Additional observations from a re-analysis of the deposited data

How the results depend on the processing

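Of 1400 recomputed differences of the 10 genes (10 genes, 7 comparisons), 1322 kept their direction and side of the threshold, 20 were no longer past it, 2 passed anew and 56 changed sign, none of the last while past the threshold in either fit. The causes were not tested unless stated. With 2 arrays a group and the deposited log2 values alone, precision is limited by the number of arrays and signal over background by the control probes.

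Between the days in untreated retina, the 5 genes past the threshold became 2 under array weights and 3 with only the 4 arrays of the comparison, which leave fewer degrees of freedom, and 2 to 5 without 1 array. The lowest count came without the first day 17 or the first day 7 array. Tubb2b and Dcx were past the threshold in every one of these fits. Gap43 was lost under median centring (adjusted p = 0.0505), no filter (0.0502), array weights (0.192), the replicate block (0.0542) and the 4 arrays (0.172), Stmn1 under array weights (0.0903) and the 4 arrays (0.0808), and Cd24a under array weights (0.352).

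The replicate number as a block raised the count in uninjected OIR against untreated day 17 retina to 1 of 10 from 0, with Tubb2b at an adjusted p of 0.0169. Over all genes 134 passed there with the block, against 115 without it. It changed no other count of members past 1.5 times. Deviations of same-numbered arrays correlated at 0.583 to 0.809 among uninjected groups and at 0.399 between the injected groups, but at -0.406 to -0.0567 between an injected and an uninjected group, and no label ties same-numbered arrays to an animal or batch. With 2 arrays a group the numbers were therefore not taken to pair the samples. With the numbers of both injected groups exchanged, a setting chosen after seeing the data, 5 members passed between the days and 0 in each other comparison. Over all genes 3539 passed between the days in that setting. Against untreated day 17 retina 215 genes passed in uninjected OIR, 43 with PBS and 53 with ISOX DUAL.

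Counts over all genes, the background of the members' counts, were less stable. The 2454 genes that passed between the days became 1111 under array weights, 345 with only the comparison's 4 arrays, 1616 or 1617 without the first or second ISOX DUAL array and 1455 without the second day 7 array. The 115 genes in uninjected OIR against untreated day 17 retina became 12 under array weights and 0 with the 4 arrays. Leaving out 1 array gave 23 for each ISOX DUAL array, 54 for each PBS array, 6 or 35 for the first or second OIR array and 3 or 0 for the first or second untreated array. The 4 genes with ISOX DUAL against untreated retina ranged from 0 to 9 and the 1 gene against uninjected OIR from 0 to 3, except for 53 and 5 with the exchanged numbers, while the count of 0 became 2 (PBS against untreated retina) and 5 (PBS against uninjected OIR) under the replicate block (43 and 4 with the exchanged numbers) and 1 (ISOX DUAL against PBS) without the first ISOX DUAL array.

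Differences near 0 changed sign under some settings. Quantile normalization gave 0.042 log2 for Tubb4a in untreated day 17 minus day 7 and -0.050 log2 for Tuba1a in ISOX DUAL minus untreated day 17, and median centring gave 0.0020 log2 for Dcx in PBS minus untreated day 17 and 0.0074 log2 for Stmn1 in ISOX DUAL minus PBS. Leaving out 1 array changed the sign of the following, whose lowest and highest log2 differences are given. In untreated day 17 minus untreated day 7 these were Tubb2a -0.99 to 0.13 and Tubb4a -0.27 to 0.26. In uninjected OIR minus untreated day 17 these were Tuba1a -0.080 to 0.19, Tubb2a -0.37 to 0.75, Tubb3 -0.40 to 0.64 and Dcx -0.22 to 0.026. In PBS minus untreated day 17 these were Tuba1a -0.30 to 0.084, Tubb2a -0.18 to 0.94, Tubb3 -0.47 to 0.56 and Dcx -0.14 to 0.10. In ISOX DUAL minus untreated day 17 these were Tuba1a -0.13 to 0.15, Tubb2a -0.26 to 0.85, Tubb3 -0.67 to 0.36 and Cd24a -0.70 to 1.16. In ISOX DUAL minus PBS these were Tuba1a -0.075 to 0.31, Tubb2a -0.40 to 0.23, Tubb2b -0.31 to 0.35, Tubb3 -0.55 to 0.15, Tubb4a -0.24 to 0.13, Stmn1 -0.29 to 0.29, Stmn2 -0.70 to 0.15, Dcx -0.17 to 0.065, Gap43 -0.28 to 0.17 and Cd24a -0.26 to 1.60. In ISOX DUAL minus uninjected OIR these were Tubb2a -0.046 to 0.26, Stmn1 -0.18 to 0.025, Dcx -0.10 to 0.15 and Cd24a -0.33 to 1.53. In PBS minus uninjected OIR these were Tuba1a -0.36 to 0.027, Tubb2a -0.13 to 0.51, Tubb3 -0.42 to 0.27, Stmn1 -0.36 to 0.22, Stmn2 -0.83 to 0.016, Dcx -0.046 to 0.20, Gap43 -0.28 to 0.18 and Cd24a -0.27 to 0.14.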

Other observations

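The 10 genes differed together between arrays of 1 group. In OIR with PBS the second array read higher than the first for all 10 genes, by 0.23 to 0.84 log2 with a median of 0.52 log2, whereas 61.6% of all genes tested were higher on it and the median over all genes was 0.04 log2. In the other groups the second array was the higher one for 8 of the 10 genes with ISOX DUAL, 5 in uninjected OIR, 6 in untreated day 17 retina and 4 in untreated day 7 retina. The medians of the 10 genes there were 0.05, 0.05, 0.15 and -0.33 log2. In untreated day 17 retina the second array was higher for Tuba1a, Tubb2a, Tubb2b and Tubb3, by up to 1.11 log2 (Tubb2a), and lower for Tubb4a. The labels give no batch for the arrays, and the source of these gaps was not tested.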
